A study of Mus musculus with 5 samples.

Results

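Histone acetylation at genes of the tricarboxylic acid (TCA) cycle was examined in 5 lists of ChIPseq peaks from CD8+ memory T cells. The genes were the 9 listed enzymes that act downstream of acetyl-CoA, *Cs*, *Idh2*, *Idh3a*, *Idh3b*, *Idh3g*, *Ogdh*, *Dlst*, *Fh1* and *Mdh2*, out of 21853 protein-coding genes of the mouse annotation. The rule that lists them is their place in the pathway. For each gene, peaks were taken that shared at least 1 bp with the gene body or the 10 kb on either side in GRCm38. A promoter peak is one that reached within 1000 bp of a start of the gene's protein-coding transcripts.

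The 5 libraries came from 2 WT samples and 3 TPdh-/- samples, and each has its own peak list. TPdh-/- mice carry a floxed *Pdha1* allele, which encodes a subunit of the pyruvate dehydrogenase complex (PDC), and a Cre transgene driven by the *Cd4* promoter. The *Cd4* promoter is active before CD4 and CD8 lineages part, so the deletion applies to both kinds of T cells and is in place before the cells are cultured. The study's methods obtain memory cells in vitro by activation of OT-I cells, which carry a transgenic receptor for an ovalbumin peptide, with that peptide and then culture with IL-15, which WT and TPdh-/- cells share. The study used mice of both sexes, and neither the sex nor the animal behind each library is stated, so p-values below measure the spread between these samples, which may be technical. The immunoprecipitating antibody recognises acetyl-lysine of histones by the study's account, and the labels of the samples give lysine 18. A peak therefore marks acetylated chromatin, and it measures neither the RNA nor the activity of the enzyme.

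The TCA cycle oxidises the acetyl group of acetyl-CoA in the mitochondrion. Citrate synthase joins acetyl-CoA to oxaloacetate, later steps release carbon dioxide and reduce NAD+ and FAD for the respiratory chain, and malate dehydrogenase restores oxaloacetate. PDC supplies acetyl-CoA from pyruvate, while fatty acids and other fuels supply it by other routes and glutamine enters at alpha-ketoglutarate. Citrate that leaves the mitochondrion is a source of the acetyl-CoA that histone acetyltransferases use, and acetylated histones mark the promoters of many active genes.

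All 9 genes had a promoter peak in at least 1 library, where 39.7% of protein-coding genes did. WT 1 held a promoter peak at 9 of the 9 genes and WT 2 at 7. TPdh-/- 1 and TPdh-/- 2 each held one at 3 genes, and TPdh-/- 3 at 7, as many as WT 2. The lists differ in length, with 15962 and 8859 peaks in WT 1 and WT 2 and 4920, 5419 and 9418 peaks in TPdh-/- 1, 2 and 3. The share of all protein-coding genes with a promoter peak followed the same order among libraries, at 38.8% and 22.2% in WT and 13.9%, 15.1% and 25.4% in TPdh-/-. A lower limit on reads is stated for the sequencing, but the number of reads behind each list is not, and a promoter without a peak may carry acetylation under the authors' threshold.

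**Figure D1:**
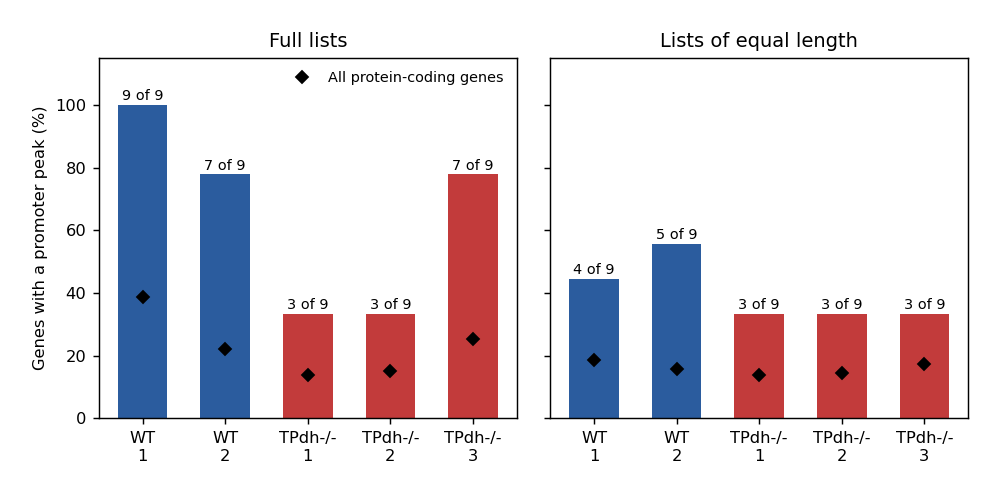
Percent of the 9 TCA cycle genes with a promoter peak in each library (bars, blue WT and red TPdh-/-, with the count above each bar) beside the percent of all protein-coding genes (diamonds), for the full lists and for lists reduced to the 4920 strongest peaks each. In the full lists the bars run from 3 of 9 in TPdh-/- 1 and 2 to 9 of 9 in WT 1, and at equal length from 3 to 5 of 9.

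The presence of promoter peaks sorted the 9 genes into 3 patterns. *Ogdh*, *Dlst* and *Mdh2* had a promoter peak in all 5 libraries, a pattern that 9.89% of protein-coding genes showed. *Cs* and the genes for the subunits of the NAD+-dependent isocitrate dehydrogenase, *Idh3a*, *Idh3b* and *Idh3g*, had one in WT 1, WT 2 and TPdh-/- 3 alone, the 3 longest lists, as did 4.28% of protein-coding genes. *Idh2* and *Fh1* had one in WT 1 alone, the longest list, as did 10.7%. None of the 9 had a promoter peak in both WT libraries and in no TPdh-/- library, a pattern that 1.91% of protein-coding genes showed. In the full lists the patterns thus followed the length of the lists, and *Idh3a* differed in this at equal length.

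When each list was reduced to its 4920 strongest peaks, the length of the shortest, 4 of the 9 genes kept a promoter peak in WT 1 (*Idh3a*, *Idh3b*, *Ogdh* and *Dlst*) and 5 in WT 2 (the same genes and *Mdh2*). The weakest peak kept had a −log10 q of 5.88 and 2.87 in WT 1 and 2, and of 1.00, 1.46 and 3.29 in TPdh-/- 1, 2 and 3. Each TPdh-/- list then held 3, fewer than either WT list, which were *Ogdh*, *Dlst* and *Mdh2* in TPdh-/- 1 and 2, and *Idh3b*, *Ogdh* and *Dlst* in TPdh-/- 3. *Ogdh* and *Dlst*, which encode the decarboxylase and the succinyltransferase of the alpha-ketoglutarate dehydrogenase complex, were thus the genes of the 9 with a peak in every list at equal length. At that length 1664 of the 21853 protein-coding genes had a promoter peak in every list. *Idh3a* then had a promoter peak in both WT libraries and in no TPdh-/- library, as did 0.636% of protein-coding genes. Its peak in the full TPdh-/- 3 list, at rank 5323 with a −log10 q of 3.06, fell just below the cut of 3.29. The mean number of genes with a promoter peak differed between WT and TPdh-/- by 1.50 at equal length and by 3.67 in the full lists. Of all protein-coding genes, 18.6% and 15.6% had a promoter peak in the reduced WT lists and 13.9%, 14.5% and 17.4% in the reduced TPdh-/- lists.

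**Figure D2:**
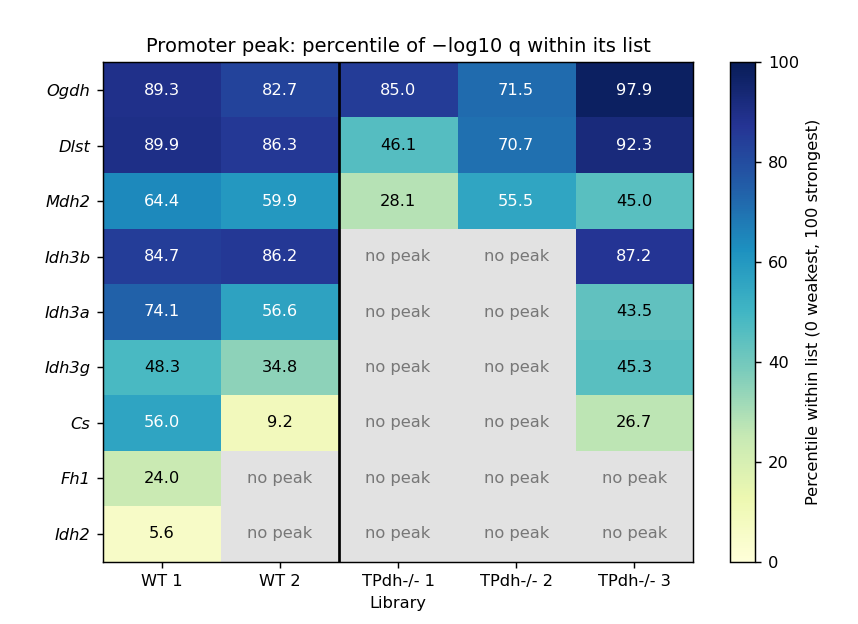
Percentile of the promoter peak's −log10 q within its own list (100 strongest, 0 weakest) for the 9 TCA cycle genes (rows) in the 5 libraries (columns), with grey cells where no promoter peak was called. *Ogdh* reached 97.9 in TPdh-/- 3 and *Idh3b* was at 84.7 to 87.2 in the 3 libraries that held its peak, with none in TPdh-/- 1 and 2.

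The promoters of 5 of the genes are shown because their peaks show the contrast between presence in all libraries (*Ogdh*, *Dlst*, *Mdh2*) and absence from TPdh-/- 1 and 2 (*Idh3b*, *Idh3g*). Each is the 300 bases from 250 before to 50 after the start in RefSeq on GRCm38.p6, read 5′ to 3′ on the strand of the gene. These starts lie 0 to 169 bp from the GENCODE start used for the peaks, and of the 6 starts that the table gives for *Ogdh* the nearest to it was taken. Capitals mark matches, on either strand, to GGGCGG, the core of the SP1 motif, to CCGGAAGT, an ETS motif, and to AAGATGGCG, a YY1 motif.
Ogdh (chr11:6291409-6291708, + strand): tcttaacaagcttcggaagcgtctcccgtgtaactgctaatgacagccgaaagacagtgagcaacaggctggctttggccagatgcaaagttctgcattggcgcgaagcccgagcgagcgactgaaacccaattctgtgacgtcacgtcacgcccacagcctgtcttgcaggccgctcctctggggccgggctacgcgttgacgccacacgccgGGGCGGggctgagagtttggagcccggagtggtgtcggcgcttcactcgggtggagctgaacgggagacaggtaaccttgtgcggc
Dlst (chr12:85110583-85110882, + strand): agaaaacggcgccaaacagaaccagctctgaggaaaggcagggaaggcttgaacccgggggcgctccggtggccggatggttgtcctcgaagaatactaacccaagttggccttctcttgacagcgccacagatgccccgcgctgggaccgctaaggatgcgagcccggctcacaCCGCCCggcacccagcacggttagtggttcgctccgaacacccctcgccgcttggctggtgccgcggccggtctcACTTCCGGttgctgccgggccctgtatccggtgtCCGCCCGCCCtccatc
Mdh2 (chr5:135778399-135778698, + strand): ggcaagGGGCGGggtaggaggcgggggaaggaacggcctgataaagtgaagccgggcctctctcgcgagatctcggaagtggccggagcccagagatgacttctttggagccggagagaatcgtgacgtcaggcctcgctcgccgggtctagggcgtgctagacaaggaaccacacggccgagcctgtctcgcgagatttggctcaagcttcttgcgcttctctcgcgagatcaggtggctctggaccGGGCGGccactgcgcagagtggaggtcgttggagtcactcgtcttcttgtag
Idh3b (chr2:130284402-130284701, - strand): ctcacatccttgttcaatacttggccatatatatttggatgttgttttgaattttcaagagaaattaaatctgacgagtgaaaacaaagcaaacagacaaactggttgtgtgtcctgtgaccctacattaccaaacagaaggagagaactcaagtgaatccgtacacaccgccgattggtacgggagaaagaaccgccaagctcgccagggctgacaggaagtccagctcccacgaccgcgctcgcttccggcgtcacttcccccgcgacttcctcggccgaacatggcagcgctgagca
Idh3g (chrX:73786848-73787147, - strand): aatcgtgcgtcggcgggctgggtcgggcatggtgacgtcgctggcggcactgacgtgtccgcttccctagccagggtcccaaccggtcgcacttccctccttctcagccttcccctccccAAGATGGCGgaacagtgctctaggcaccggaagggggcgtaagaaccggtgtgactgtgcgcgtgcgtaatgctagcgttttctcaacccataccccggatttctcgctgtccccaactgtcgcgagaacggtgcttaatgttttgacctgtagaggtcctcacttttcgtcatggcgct

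A promoter sequence was matched for 8 of the 9 genes, all but *Idh3a*. The GGGCGG core was in 6 of the 8 (*Cs*, *Idh2*, *Ogdh*, *Dlst*, *Fh1* and *Mdh2*), and 35.7% of 32851 promoters of this length held it. CCGGAAGT was in the *Dlst* promoter alone, where 3.89% of all promoters held it, and AAGATGGCG in the *Idh3g* promoter alone, where 1.40% did. Neither the NRF1 motif CGCATGCG nor the estrogen-related receptor motif TCAAGGTCA was in any of the 8, while 1.87% and 0.423% of all promoters held them. No match to one motif overlapped a match to another, and 2 matches to the GGGCGG core overlapped each other at *Dlst*. The promoters were rich in CpG, with a median observed-to-expected CpG ratio of 0.899 against 0.384 over all promoters and a median GC content of 60.8% against 52.7%. The GGGCGG core was present at all 3 genes with a peak in every library and at *Idh2* and *Fh1*, with a peak in WT 1 alone. Of the 3 matched genes with a peak in WT 1, WT 2 and TPdh-/- 3 alone, it was present at *Cs* and not at *Idh3b* or *Idh3g*.

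*Cs* encodes citrate synthase, which takes acetyl-CoA into the cycle, and lies on chr10:128337734-128362479. Its promoter peak was 1200 bp wide in WT 1, 942 bp in WT 2 and 807 bp in TPdh-/- 3, with fold enrichments over the background of the peak caller of 2.80, 2.44 and 2.56. Peaks were also ranked by −log10 q within each list and expressed as a percentile, where 100 is the strongest. The *Cs* peak was at the 56.0 percentile in WT 1, 9.18 in WT 2 (rank 8046 of 8859) and 26.7 in TPdh-/- 3, so that it was near the threshold of the WT 2 list and the WT 2 value was under the TPdh-/- 3 value.

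*Idh3a* encodes the catalytic subunit of the NAD+-dependent isocitrate dehydrogenase, a rate-controlling enzyme of the cycle, and lies on chr9:54586334-54604661. Its promoter peak spanned 1375 bp in WT 1, 600 bp in WT 2 and 1156 bp in TPdh-/- 3. Fold enrichments were 3.07, 2.88 and 2.59 and percentiles 74.1, 56.6 and 43.5 in the same order. By width the groups overlapped, since the peak in TPdh-/- 3 was wider than in WT 2, and by fold and percentile TPdh-/- 3 was the lowest of the 3 libraries.

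*Idh3b*, which encodes a non-catalytic subunit of the same enzyme, lies on chr2:130279309-130284547. Its promoter peak had fold enrichments of 3.68 in WT 1, 3.71 in WT 2 and 3.53 in TPdh-/- 3, and widths of 1043, 990 and 907 bp. Its percentiles were 84.7, 86.2 and 87.2, so that it ranked within a narrow range in the 3 lists and was the highest of the 4 genes of its pattern in each. Among promoter peaks of protein-coding genes, the fold enrichment at *Idh3b* was at the 90.5, 92.1 and 89.7 percentile while the width was at the 36.6, 50.2 and 37.1 percentile, so the peak was high and of middling width. No peak was called there in TPdh-/- 1 or 2. Of the 996 promoters at or above the 80 percentile in WT 1, WT 2 and TPdh-/- 3, a threshold chosen after values were seen, 5.42% had no promoter peak in either TPdh-/- 1 or 2. *Idh3b* was 1 of the 3 TCA cycle genes among the 996 and the one of them without those peaks, and the others were *Ogdh* and *Dlst*.

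*Idh3g*, for the remaining non-catalytic subunit, lies on chrX:73778963-73786897, where its start is 131 bp from that of *Ssr4*, a gene read in the opposite direction. The peak there was 1631 bp wide in WT 1, 1118 bp in WT 2 and 994 bp in TPdh-/- 3 and took in the *Ssr4* start, so its acetylation cannot be assigned to *Idh3g* alone. Fold enrichments were 2.86, 2.76 and 2.78 and percentiles 48.3, 34.8 and 45.3. The TPdh-/- 3 values of fold and percentile lay between those of the 2 WT libraries.

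*Idh2* encodes the NADP+-dependent mitochondrial isocitrate dehydrogenase, which can also run towards isocitrate, and lies on chr7:80094846-80115392. Its one promoter peak, in WT 1, was 845 bp wide with a fold enrichment of 2.05 at the 5.57 percentile (rank 15074 of 15962). It was thus among the weakest peaks of the longest list, and its absence from the other lists cannot be told apart from their shorter length.

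*Ogdh* encodes the decarboxylase of the alpha-ketoglutarate dehydrogenase complex and lies on chr11:6291633-6356642, with 6 annotated starts of protein-coding transcripts. Its promoter peak was 1755 bp wide in WT 1, 1050 bp in WT 2, while TPdh-/- 1, 2 and 3 had 775, 1294 and 1115 bp. The fold enrichments were 3.09 and 3.24 in WT and 3.50, 2.97 and 3.81 in TPdh-/-. The percentiles were 89.3 and 82.7 in WT and 85.0, 71.5 and 97.9 in TPdh-/-, the last at rank 195 of 9418 peaks. By all 3 measures the groups overlapped, and the lowest and the highest fold and percentile were both in TPdh-/- libraries. The peak lay mostly inside the gene, with its midpoint 496, 473, 416, 671 and 504 bp downstream of the first start in the order given, and in TPdh-/- 1 and 2 it began 29 and 24 bp downstream of that start. Of the 300 promoter bases printed above, the peak covered 300 in WT 1, 128 in WT 2 and 47, 52 and 129 in TPdh-/- 1, 2 and 3. Over the protein-coding genes whose promoter peak had its midpoint within 1000 bp of the gene start, the median midpoint was between 111.5 and 125.5 bp downstream in the 5 libraries.

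*Dlst*, for the succinyltransferase of the same complex, lies on chr12:85110833-85134845. The peak was 1290 bp wide in WT 1, 1078 bp in WT 2, while TPdh-/- 1, 2 and 3 had 670, 1075 and 777 bp. Both WT values were above all TPdh-/- values, with a gap of 3.00 bp between WT 2 and TPdh-/- 2, and the peak also came within 1000 bp of a start of *Prox2*. Fold enrichments of 3.28 and 3.43 in WT stood beside 2.95, 3.13 and 3.69 in TPdh-/-. The percentiles were 89.9 and 86.3 in WT and 46.1, 70.7 and 92.3 in TPdh-/-, so that TPdh-/- 3 was the highest by fold and by percentile, and TPdh-/- 1 the lowest by all 3 measures.

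*Fh1* encodes fumarase, which hydrates fumarate to malate, and lies on chr1:175600374-175625635. A promoter peak was called in WT 1 alone, 907 bp wide with a fold enrichment of 2.51 at the 24.0 percentile. It overlaps the body of the neighbouring gene *Kmo* as well.

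*Mdh2* encodes the mitochondrial malate dehydrogenase, which closes the cycle, and lies on chr5:135778480-135790398, with its start 95 bp from that of *Styxl1* on the other strand. Its peak, which also took in the *Styxl1* start, was 1279 bp wide in WT 1, 1285 bp in WT 2, while TPdh-/- 1, 2 and 3 had 1029, 1110 and 1209 bp. The fold enrichments were 2.75 and 3.03 in WT and 2.74, 2.87 and 2.62 in TPdh-/-, and the percentiles were 64.4 and 59.9 in WT and 28.1, 55.5 and 45.0 in TPdh-/-. *Mdh2* was the gene of the 3 with a peak in all libraries for which WT exceeded TPdh-/- in every library by both width and percentile. At equal list length it had no promoter peak in WT 1 or TPdh-/- 3, and the mean width, with 0 for no peak, was 70.5 bp less in WT than in TPdh-/-.

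**Figure D3:**
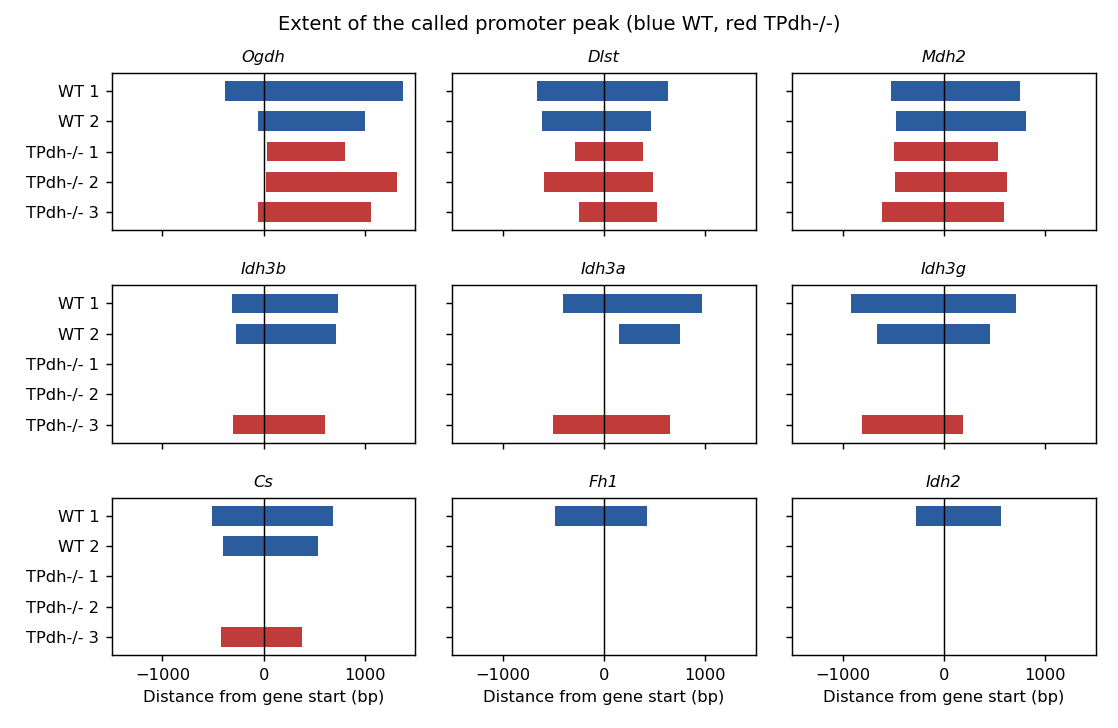
Extent of the called promoter peak of each TCA cycle gene in each library (blue WT, red TPdh-/-) along the distance from the gene start in bp, positive in the direction of transcription. Peaks at *Ogdh* extend into the gene, with midpoints 416 to 671 bp downstream, while those at *Idh3g* lie upstream of its start on balance.

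Widths were compared over the 5 libraries with 0 where no peak was called. The exact permutation test has 10 assignments of 5 libraries to groups of 2 and 3, so the smallest two-sided p is 0.2 and no gene could pass 0.05. Both WT widths were above all 3 TPdh-/- widths for 5 of the 9 genes (*Cs*, *Idh3b*, *Idh3g*, *Dlst* and *Mdh2*), where 22.1% of the 8675 genes with a promoter peak in any library showed this. The mean width at *Mdh2* was 1282 ± 4.24 bp in WT (SD, n = 2) and 1116 ± 90.2 bp in TPdh-/- (SD, n = 3), a difference of 166 bp (exact permutation test, two-sided, p = 0.2, adjusted p = 0.885 over all genes tested). At *Dlst* it was 1184 ± 150 bp in WT (SD, n = 2) and 841 ± 210 bp in TPdh-/- (SD, n = 3), with the same exact p of 0.2 and the same adjusted p. At *Ogdh* the means were 1402 ± 499 bp in WT (SD, n = 2) and 1061 ± 264 bp in TPdh-/- (SD, n = 3), with an exact p of 0.6. The mean was higher in WT for 9 of the 9 genes and for 93.1% of all genes tested. The median difference was 454 bp over the 9 and 398 bp over all. A gene with a peak in WT 1 alone has the higher mean in WT by construction. This holds for *Idh2* and *Fh1* and for 27.0% of the genes tested. Whether widths at the TCA cycle genes differed from those at all genes was not tested.

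**Figure D4:**
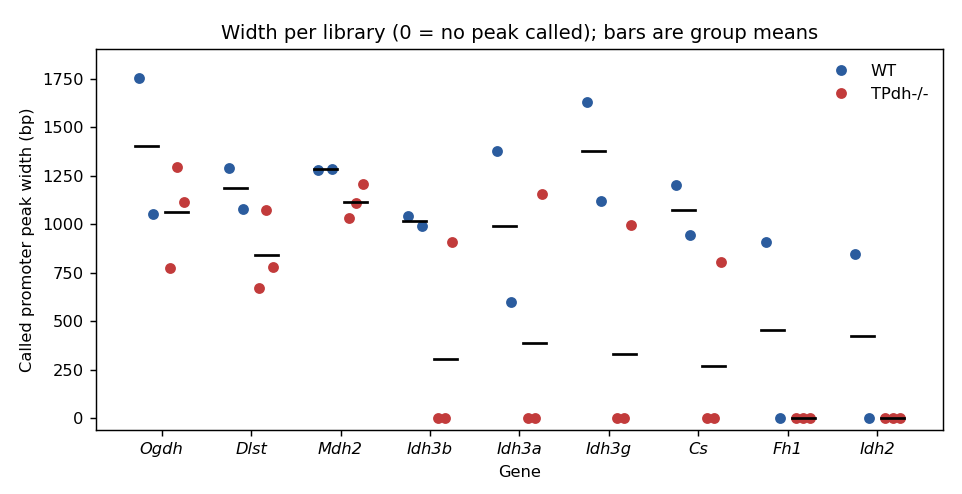
Called width of the promoter peak in bp for each TCA cycle gene and library (points, blue WT and red TPdh-/-, 0 where no peak was called), with black bars at the group means of 2 WT and 3 TPdh-/- libraries. The points of *Ogdh* and *Idh3a* overlap between the groups, those of *Mdh2* and *Dlst* do not, and the 0 values of *Cs*, *Idh3b* and *Idh3g* come from TPdh-/- 1 and 2.

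Percentile and fold enrichment were compared for the 3 genes with a promoter peak in all 5 libraries, out of 2161 such genes. By percentile, both WT libraries were above all TPdh-/- libraries at 1 of the 3, *Mdh2*, with means of 62.2 ± 3.17 in WT (SD, n = 2) and 42.9 ± 13.9 in TPdh-/- (SD, n = 3; exact permutation test, p = 0.2, adjusted p = 0.750), and at 25.3% of all 2161 genes. The mean percentile was 88.1 in WT and 69.7 in TPdh-/- at *Dlst* (exact p = 0.6) and 86.0 and 84.8 at *Ogdh* (exact p = 1.0). The difference of 18.5 at *Dlst* was 6.66 without TPdh-/- 1, 29.7 without TPdh-/- 3 and 5.01 at equal list length. A longer list raises the percentile of the same site, and 82.3% of the 2161 genes had the higher mean in WT, with a median difference of 8.85. By log2 fold enrichment the groups separated at none of the 3 genes, where 16.4% of the 2161 genes had both WT libraries above all TPdh-/- libraries. The differences in mean log2 fold enrichment, WT minus TPdh-/-, were −0.11 at *Ogdh*, 0.05 at *Dlst* and 0.07 at *Mdh2*, with exact p of 0.6, 0.8 and 0.4, and the median over all genes was 0.03. The SDs of log2 fold enrichment in WT (n = 2) and TPdh-/- (n = 3) were 0.049 and 0.182 at *Ogdh*, 0.043 and 0.167 at *Dlst*, and 0.099 and 0.065 at *Mdh2*. At each gene the difference was thus larger than the SD of 1 group and smaller than that of the other. The separation of *Mdh2* by width and percentile did not remain at equal list length. Its WT 1 peak, with a −log10 q of 5.32, fell below the WT 1 cut of 5.88, while TPdh-/- 1 kept peaks down to 1.00. With a minimum −log10 q of 2 in every list, only the TPdh-/- 1 peak was lost at *Mdh2*, with a −log10 q of 1.88. Its width then counted as 0, which could only widen the separation by width, and the mean difference was 509 bp. With a minimum of 5, the WT 1 peak alone remained at *Mdh2*. The widths of the groups then overlapped, with a mean difference of 639.5 bp.

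The gene bodies and flanks of the 9 genes held 56 peaks in all, 19 and 13 in WT and 6, 7 and 11 in TPdh-/-, which merged into 19 sites. These were 0.119% and 0.147% of the peaks of the WT lists and 0.122%, 0.129% and 0.117% of those of the TPdh-/- lists, so the share of peaks that fell at TCA cycle genes overlapped between the groups. The 10 sites outside the promoters comprised 4 that reached within 1000 bp of a start of another gene, at *Coq10a*, *Gm44949*, *Nop56* and *Kmo*, and 6 that did not. A peak in all 5 libraries was found at 2 of the 10. One lay 1981 to 2788 bp downstream of *Idh2*, at chr7:80090490-80092865 inside *Zfp710*, where the WT peaks spanned 1707 and 1557 bp and the TPdh-/- peaks 1569, 1505 and 1787 bp, with percentiles of 85.3 and 91.2 in WT and 14.4, 47.7 and 68.0 in TPdh-/-. The other lay 6866 to 7205 bp downstream of *Idh3a*, at chr9:54611527-54613678 inside *Acsbg1*, where the WT peaks spanned 2088 and 2031 bp and the TPdh-/- peaks 1832, 1700 and 1959 bp, with percentiles of 93.7 and 92.8 in WT and 84.4, 41.2 and 80.8 in TPdh-/-. Near both genes, then, the flanking peak was called in TPdh-/- 1 and 2, where the promoter peak was not. At *Idh2* the promoter peak was absent from WT 2 and TPdh-/- 3 as well, which also held the flanking peak. The fold enrichments were 2.68 and 3.05 in WT and 2.29, 2.41 and 2.48 in TPdh-/- at the site near *Idh2*, and the groups did not overlap. At the site near *Idh3a* they were 2.55 and 2.58 in WT and 2.56, 2.32 and 2.41 in TPdh-/-, and the groups overlapped. The percentiles of both sites were higher in each WT library than in every TPdh-/- library, in lists of unequal length and with no test. Among the 2161 genes with a promoter peak in all 5 libraries, 25.3% separated this way by percentile and 16.4% by fold enrichment. The share over peaks outside promoters was not computed. Both sites lie in other genes, so their relation to *Idh2* and *Idh3a* is not known.

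*Ogdh* had the most sites, with 3 besides its promoter. A site in an intron, at chr11:6331825-6333310, held a peak in WT 1, WT 2 and TPdh-/- 3, and a site over an exon, at chr11:6323869-6324935, held one in WT 1 alone. A site 8328 to 8825 bp downstream of the gene, at chr11:6364970-6366196, held a peak with a fold enrichment of 2.70 and 2.75 in WT 1 and 2 and of 3.23 and 3.37 in TPdh-/- 1 and 2, and none in TPdh-/- 3. It was thus called in the 2 shortest lists and not in TPdh-/- 3, whose list is longer, unlike the pattern at the promoters. The other sites were 7232 to 7380 bp upstream of *Idh2* in WT 1 and WT 2, downstream of *Idh3b* at *Nop56* in all libraries but TPdh-/- 1, and, in WT 1 alone, downstream of *Cs* at *Coq10a*, upstream of *Fh1* at *Kmo* and downstream of *Mdh2*. *Dlst* and *Idh3g* had no site besides the promoter.

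**Figure D5:**
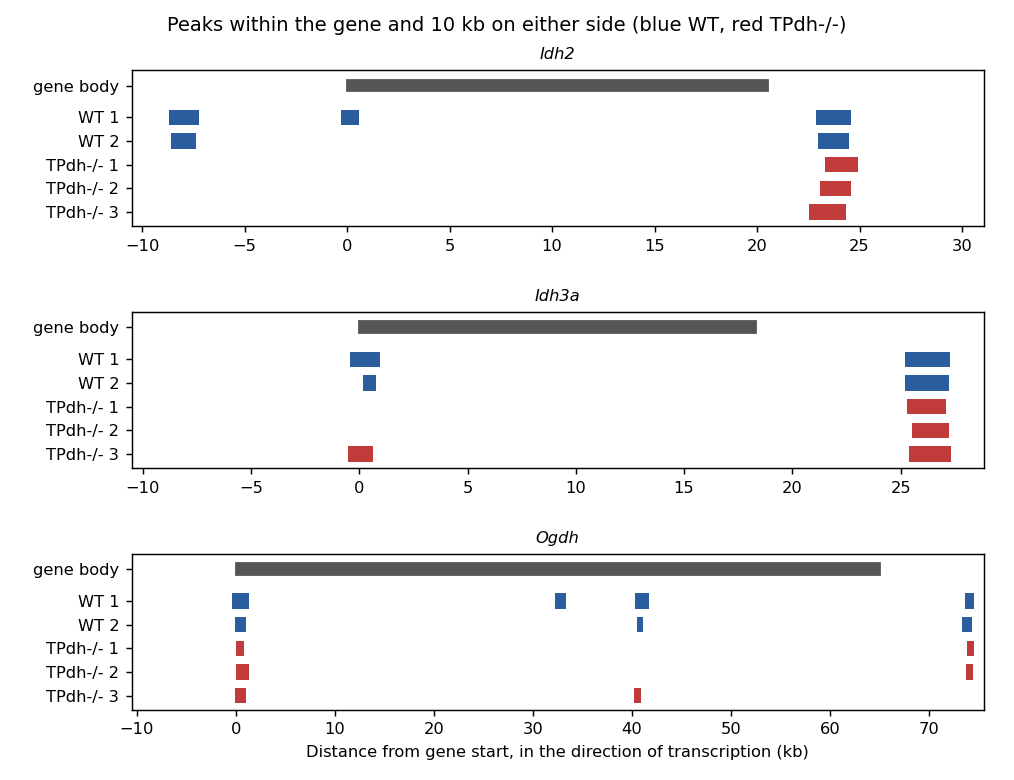
Called peaks in the gene body (grey) and the 10 kb on either side of *Idh2*, *Idh3a* and *Ogdh* in each library (blue WT, red TPdh-/-), along the distance from the gene start in kb in the direction of transcription. The flanking peaks downstream of *Idh2* and *Idh3a* are present in all 5 libraries, and the one downstream of *Ogdh* in all but TPdh-/- 3.

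Among 8 other genes of the cycle (*Suclg1*, *Suclg2*, *Sucla2*, *Sdha*, *Sdhb*, *Sdhc*, *Sdhd* and *Dld*, the last shared with PDC), 8 and 4 had a promoter peak in WT 1 and 2, and 2, 4 and 3 in TPdh-/- 1, 2 and 3. Over all protein-coding genes the share with one was 38.8% and 22.2% in WT and 13.9%, 15.1% and 25.4% in TPdh-/-, and 9.89% had one in all 5 libraries. *Suclg1*, for a subunit of succinyl-CoA synthetase, and *Sdhc*, for a membrane anchor of succinate dehydrogenase, had one in all 5 libraries. *Sdha*, for the flavoprotein of succinate dehydrogenase, was the gene of these 8 with a promoter peak in both WT libraries and in no TPdh-/- library, a pattern of 1.91% of protein-coding genes. Its widths were 1083 and 705 bp and its percentiles 73.7 and 50.5. None of these 8 had the pattern of *Cs* and the *Idh3* genes, a peak in WT 1, WT 2 and TPdh-/- 3 alone, which 4.28% of protein-coding genes showed. Of 3 cytosolic relatives (*Aco1*, *Idh1* and *Mdh1*), 2 and 1 had a promoter peak in WT and 1, 1 and 3 in TPdh-/-, with *Aco1* in all 5. Of 4 genes of glutamate, aspartate and pyruvate metabolism (*Glud1*, *Got1*, *Got2* and *Pcx*), 3 and 1 had one in WT and 1, 2 and 2 in TPdh-/-. *Got1*, an aspartate aminotransferase, had one in all 5 and *Pcx*, pyruvate carboxylase, in none.

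The labelled cell type was checked by promoter peaks at marker genes. Of 8 T cell markers, 7 and 4 had a promoter peak in WT and 2, 4 and 5 in TPdh-/-, with *Lck* and *Cd8b1* in all 5 libraries, *Cd8a* in WT 1 alone and *Cd2* in none. The 7 in WT 1 count the same peak, 2293 bp wide, at both *Cd3d* and *Cd3g*. The share among all protein-coding genes was 38.8% and 22.2% in WT and 13.9%, 15.1% and 25.4% in TPdh-/-. None of 2 markers of CD4 T cells or 4 of B cells had one in any library, and of 4 myeloid markers *Spi1* had one in every library. Since most protein-coding genes had no promoter peak, absence at so few markers cannot settle the cell type. Over all protein-coding genes, the promoter peaks of WT 1 and 2 had median widths of 1191 and 987 bp, and those of TPdh-/- 1, 2 and 3 had 839, 905 and 1029 bp. The narrowest medians were thus in TPdh-/- 1 and 2, the libraries in which the fewest TCA cycle genes had a promoter peak, and the part of this in the widths at single genes was not tested.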

How the data were processed

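ChIPseq of acetylated histones in memory CD8+ T cells was analysed from the peak lists of 2 WT and 3 TPdh-/- libraries. The authors aligned reads to GRCm38/mm10 with BWA-mem (0.7.17), kept uniquely mapped reads, removed blacklisted regions with SAMtools (1.15.1) and called broad peaks in each library with MACS2 (2.2.6). The deposited lists give each peak's fold enrichment, a ratio over the background that MACS2 estimated, and its −log10 p and −log10 q. An input control is not given in the sources used here. A lower limit on reads is stated for the sequencing as a whole. The depth of each list is unknown, so no counting interval is given, and the authors' DiffBind analysis, which needs reads, could not be repeated.

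Peaks were matched to GENCODE genes of GRCm38 (55450 genes, 141767 transcripts) by an overlap of at least 1 bp. Where a promoter held several peaks, the one with the largest −log10 q was taken. The percentile is the average rank of −log10 q within a list, less 0.5, as a percent of the list length. Versions were Python 3.11.15, scipy 1.17.1, numpy 2.4.6 and pandas 2.3.3, and the code was tested on simulated lists. Groups were compared by exact permutation tests, with a two-sided p of double the smaller one-sided p and Benjamini-Hochberg adjustment over all genes tested. Widths used all genes with a promoter peak in any library, while percentiles and log2 fold enrichments used those with one in all 5. No pseudocount was needed. Replicate numbers come from the sample titles, and the most peaks that any pair of lists shared with the same start and end was 1.

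The alternatives were a minimum −log10 q of 2 or 5, equal list lengths, promoters within 3000 bp, the 5′ end of the gene alone, gene windows of 3 kb or none, ranking by −log10 p, blocking on the replicate number, and omission of each library. The genes, lists and motifs were chosen with earlier results of these data known. All 9 genes are named. Other pathway genes are named with values or a pattern where a promoter peak was in both WT libraries and no TPdh-/- library, in all 5, or in none. Not every gene of these lists is reported here.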

Additional observations from a re-analysis of the deposited data

How the results depend on the processing

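Of 147 values of width, percentile or fold difference recomputed for single genes, 141 kept their direction and 6 reversed. Those for promoters within 3000 bp and for the 5′ end alone equalled the main values. Those of the replicate block equalled the values without TPdh-/- 3. A gene without the peaks needed in a setting gave no value there, so the count of 141 does not measure robustness. At equal list length the difference in the mean number of genes with a promoter peak moved from 3.67 to 1.50 and that of peaks in the gene windows from 8 to 2.67. At that length the number of genes whose WT widths all exceeded the TPdh-/- widths moved from 5 of 9 to 3 of 5 (20.0% of all genes tested). The number by percentile moved from 1 of 3 to 0 of 2 (10.2% of all genes tested). The differences reversed to −70.5 bp for *Mdh2* width and −16.1 for *Ogdh* percentile. With a minimum −log10 q of 2 the number by width was 4 and by percentile 0. With a minimum of 5 the number by width was 2. None of the 9 genes then had a peak in all 5 libraries, so that percentile and fold gave no value. The shares over all genes were not computed at these minimums. Leaving out each library in turn gave 5 to 9 genes by width, 1 to 2 by percentile and 0 to 1 by fold. By width, 9 separated without WT 2, where 87.1% of all genes tested did. Without WT 1, TPdh-/- 1 or TPdh-/- 2, 5 separated by width, against 32.5%, 22.9% and 23.5% of all genes. By percentile it was 2 of 3 without TPdh-/- 3, against 48.6%, and 1 of 3 otherwise, against 29.5% to 64.9%. By fold it was 1 of 3 without WT 1, TPdh-/- 2 or TPdh-/- 3, against 30.2%, 22.1% and 27.7%. It was 0 of 3 by fold without WT 2 or TPdh-/- 1, against 36.2% and 25.3%. The *Ogdh* width difference then ran from −11.3 (without WT 1) to 694 bp, the *Ogdh* percentile difference from −5.42 (without TPdh-/- 2) to 7.78, also negative without WT 1 at −2.08, and the *Dlst* log2 fold difference from −0.019 (without TPdh-/- 1) to 0.14. The replicate block sets WT 1 against TPdh-/- 1 and WT 2 against TPdh-/- 2 and so also leaves out TPdh-/- 3. Under the block, 3 of 3 genes were higher in WT in both pairs by percentile (59.4% of all genes) and 2 of 3 by fold (36.2%). It gave 6 of 9 genes by width (46.2%), a difference of 5 genes with a promoter peak and one of 9.5 window peaks, values that leaving out TPdh-/- 3 without pairing gave as well (6 of 9 against 42.1% of all genes). Nothing states that the numbers pair the samples. The width deviations of same-numbered libraries had r = 0.036 and 0.023 across 8675 genes, which are not independent replicates. With 2 WT libraries the WT deviations mirror each other, so r was −0.036 for WT 2 with TPdh-/- 1 and −0.023 for WT 1 with TPdh-/- 2. These values therefore cannot show whether the numbers pair the samples. The other alternatives changed no direction, and the cause of these changes was not tested beyond what fewer peaks or libraries imply. An exact two-sided p of 2 libraries against 3 cannot be under 0.2, and a promoter without a called peak cannot be told from one under the threshold.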
